A study of Homo sapiens with 4 samples.

Results

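The 7 genes ELAVL1, TIA1, TIAL1, PTBP1, PTBP3, U2AF2 and RALY encode proteins that bind U-rich RNA, as HNRNPC does, and their own transcripts were searched for binding of HNRNPC and of the poly(A)-binding protein PABPC4. Members were the peak positions that carried the NCBI Gene ID of one of these genes, each position counted once. They were 16 of the 9107 positions in the HNRNPC list and 68 of the 63507 positions in the PABPC4 list. The cells were MDA-MB-231, an established human breast cancer line, grown without any treatment other than ultraviolet light of 400 mJ per square centimetre at 254 nm. Each protein had 2 samples, made by PAPERCLIP for PABPC4 and, according to the labels and methods, by irCLIP for HNRNPC, although the deposited list is named for another form, HITS-CLIP. Both assays crosslink proteins to RNA with that light, recover 1 protein with its antibody and sequence the RNA fragments bound to it, called tags. PAPERCLIP also primes reverse transcription at poly(A) and so marks mRNA 3′ ends. The tags of both samples were pooled before peaks were called, so replicate spread could not be measured and no difference was tested. A peak's height is the number of pooled tags at its summit. Where tags are summed or given as a share, these heights were summed, so tags outside the listed peaks are not counted. The exact 95% Poisson interval of a height, like the 95% Wilson interval of a share, covers counting error only.

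HNRNPC is a nuclear protein that coats nascent transcripts at runs of U, many of them in introns. U2AF2 recognises the pyrimidine tract before a 3′ splice site, and HNRNPC is known to keep it off cryptic exons in Alu repeats that lie antisense to the transcript, where the A tail of the repeat is read as U. PTBP1 and its paralogue PTBP3 bind pyrimidine-rich tracts and regulate splicing, TIA1 and TIAL1 bind U-rich stretches beside 5′ splice sites and in 3′ UTRs, ELAVL1 (HuR) binds AU-rich and U-rich 3′ UTRs, and RALY is a close relative of HNRNPC. The values below describe HNRNPC and PABPC4 on the RNAs of these genes. They do not describe where the encoded proteins bind.

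The gene ID did not always match the annotated gene. For ELAVL1, 1 of 6 HNRNPC positions and 9 of 21 PABPC4 positions lay outside the annotated gene (GRCh38 chr19:7958573-8005659, minus strand), between 81.0 and 382.9 kb upstream, in or near FBN3, CD320, NDUFA7 and RAB11B-AS1. Counts for ELAVL1 are given below for the gene itself, with the ID-based count beside them where they differ. All 8 PABPC4 positions of TIA1 were also listed under C2orf42, a neighbour with an annotated transcript that runs across TIA1. An HNRNPC peak of 6 tags in a TIA1 intron (chr2:70232093-70232152) and a PABPC4 peak of 8 tags in its 3′ UTR were listed under C2orf42 alone and were not members. Inside the 7 genes there were thus 15 HNRNPC and 59 PABPC4 members.

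The tallest HNRNPC peaks of U2AF2 and ELAVL1 are printed below with 50 nt upstream, because they lacked the U run that HNRNPC is known to bind. Sequences run 5′ to 3′ on the strand of the RNA, with T for U, and capitals mark runs of 5 or more U and the 6-mer GUGUCA, in DNA letters.
U2AF2 chr19:55664466-55664676, strand plus: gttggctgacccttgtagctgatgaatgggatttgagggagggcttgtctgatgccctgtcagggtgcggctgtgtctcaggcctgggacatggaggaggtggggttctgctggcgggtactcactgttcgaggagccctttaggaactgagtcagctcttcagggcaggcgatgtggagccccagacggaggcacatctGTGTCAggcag
ELAVL1 chr19:7966277-7966438, strand minus: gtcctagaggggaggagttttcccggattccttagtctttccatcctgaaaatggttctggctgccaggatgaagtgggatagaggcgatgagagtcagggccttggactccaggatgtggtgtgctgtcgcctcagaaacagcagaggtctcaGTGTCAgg
Both sequences held no U run and ended near GUGUCA.

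HNRNPC peaks were found on 5 of the 7 genes, and TIA1 and PTBP1 had none under their own IDs. Over all protein-coding genes, 19.0% had at least 1 HNRNPC position. All 15 HNRNPC peaks inside the genes lay in introns, as did the ELAVL1 position in CD320 (16 of 16, 80.6 to 100%), against 85.5% of the whole list (84.7 to 86.2%). None lay in a 3′ UTR, where 1.82% of protein-coding genes had an HNRNPC position and where 4.96% of the list lay. The 0 of 16 in 3′ UTRs had a Wilson upper limit of 19.4%. Member heights ran from 6 to 34 tags with a median of 10.5, beside 11 for the whole list, and the median width was 110 nt beside 101 nt. Of the 16, 10 had a p-value of at most 0.001 from the peak caller. The share of the whole list at this limit was not calculated, so the count is not placed beside it. RNA levels of the genes are not held in these lists, so their part in having a peak or in its height was not tested.

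**Figure D1:**
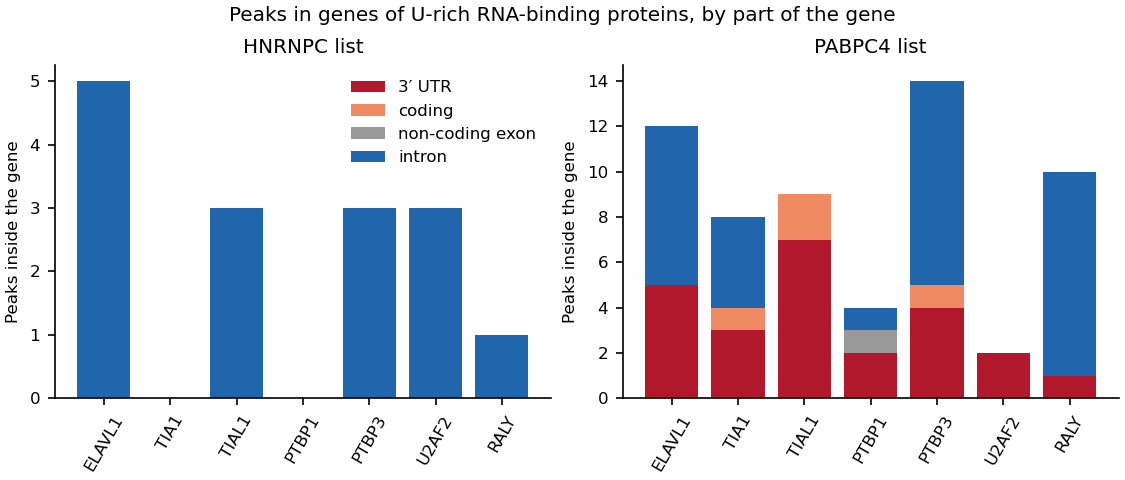
Number of peaks inside each annotated gene (bars, split by the part of the gene that holds the peak centre) in the HNRNPC list (left) and the PABPC4 list (right), with separate vertical scales. HNRNPC peaks lay in introns in all 5 genes that had them, while all 7 genes had PABPC4 peaks in a 3′ UTR.

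U2AF2, the large subunit of the factor that marks the 3′ splice site, had 3 HNRNPC peaks of 12, 24 and 18 tags in 20.6 kb. They lay near each other, at chr19:55663259-55663363 in intron 6 and at chr19:55664516-55664676 and chr19:55665105-55665246 in intron 7, with gaps of 1152 and 428 nt. The intron 6 peak was the closest of the HNRNPC peaks in the genes to a following exon, with its centre 295 nt before it. Per length this gene had 1.46 peaks in 10 kb, beside a median of 0.261 over the protein-coding genes with any HNRNPC position. TIAL1 had 1.19 and ELAVL1 1.06 in 10 kb, and RALY had 0.0872. The median used all positions of a gene ID and RefSeq lengths, while the member values used peaks inside the annotated gene.

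PTBP3 had 3 peaks in 115.9 kb, or 0.259 in 10 kb, and they were 27438 and 65449 nt apart. The tallest, of 32 tags (21.9 to 45.2), lay in intron 1. The others had 16 tags in intron 12 and 8 tags in intron 5. Its paralogue PTBP1, a gene of 15.3 kb with 15 exons, had no HNRNPC peak.

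ELAVL1 had 5 peaks in 47.1 kb, the most of any member, spread over introns 1, 2, 3 and 5 with gaps of 5947 to 11142 nt. Heights were 34 tags (23.5 to 47.5) in intron 5 at chr19:7966277-7966388, 21 in intron 3, 10 in intron 2, and 6 and 6 in intron 1. The position in CD320 that carried its ID had 6 tags. TIAL1 had 3 peaks of 11, 9 and 8 tags. The first 2 of these lay 217 nt apart in intron 2 and the peak of 8 tags lay 116 nt into intron 1 (chr10:119596238-119596398). RALY, in 114.7 kb, had 1 peak of 9 tags (4.12 to 17.1), 985 nt into intron 2 and 575 nt before the next annotated exon.

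The intervals of the tallest peaks of ELAVL1, PTBP3 and U2AF2 (15.4 to 35.7 tags) overlapped. Those of TIAL1 (5.49 to 19.7) and RALY overlapped each other and lay below those of ELAVL1 and PTBP3. Of the 15 peaks in the genes, none had its centre within 100 nt upstream of an annotated exon. That stretch holds a pyrimidine tract and branch point. In the whole list 0.617% of intron peaks had their centre there (0.466 to 0.817%). Only exons of the gene named by the ID were searched, so the position in CD320 was not checked against CD320 exons.

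**Figure D2:**
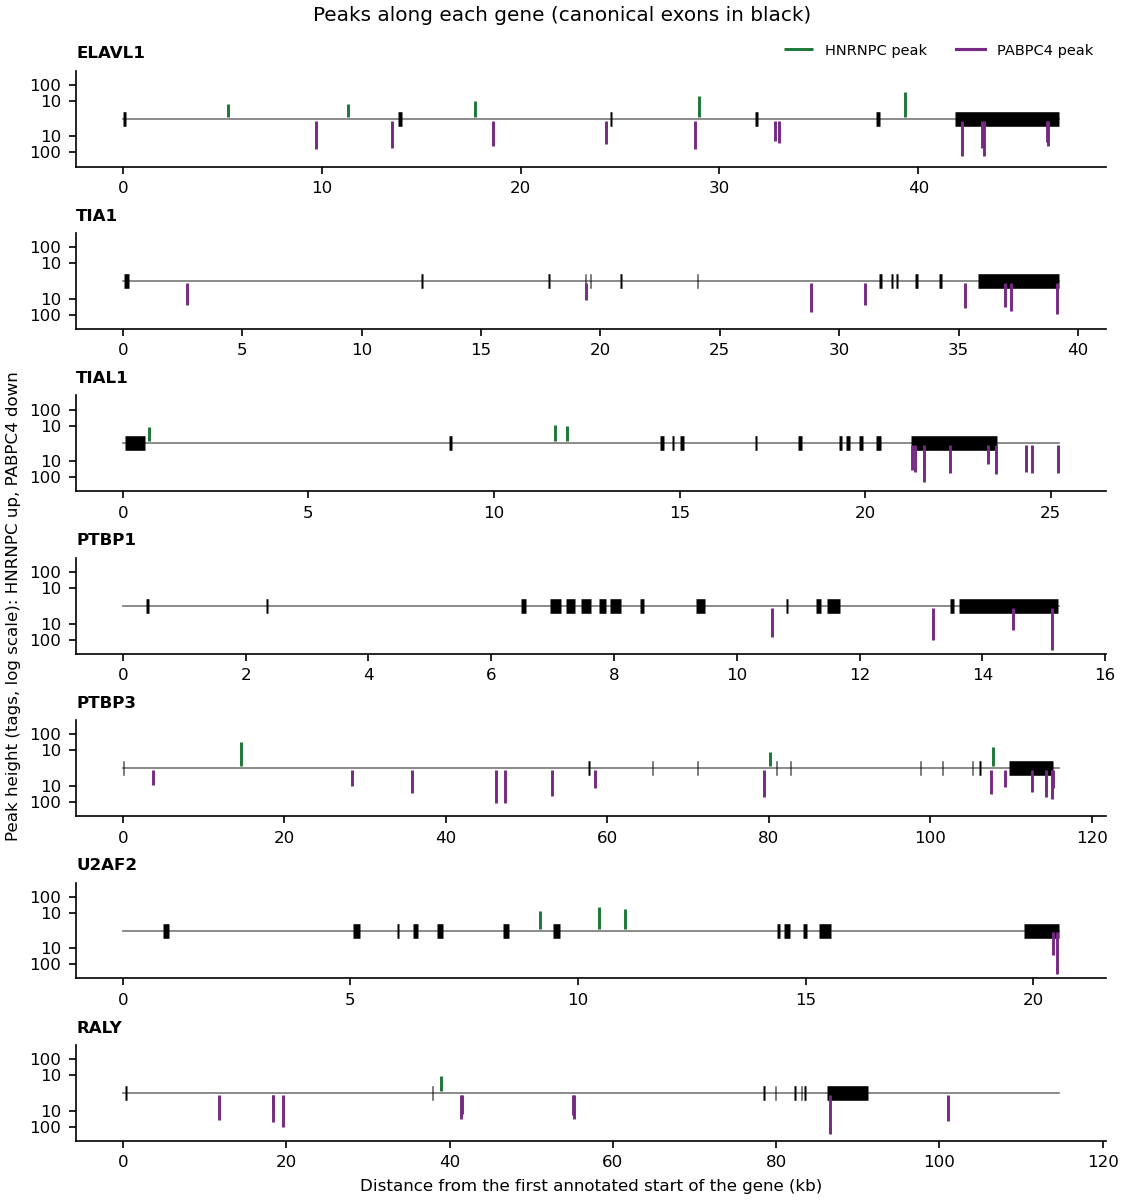
Peaks along each gene, with distance from the first annotated start in kb on the horizontal axis (a separate scale for each gene) and peak height in tags on a log scale, HNRNPC upward and PABPC4 downward; black blocks are exons of the canonical transcript. HNRNPC peaks lay between exons in every gene that had them, and the tallest PABPC4 peaks of U2AF2 and PTBP1 lay at the gene's end.

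A run of at least 5 U lay inside 4 of the 15 peaks in the genes (26.7%, 10.9 to 52.0%), beside 13.3% of the whole list (12.6 to 14.0%). These were PTBP3 at 32 tags with 12 U in a row, and U2AF2 at 18 tags, RALY and an ELAVL1 peak of 6 tags with 5 U each. With the 50 nt upstream added, 7 of 15 had a run (46.7%, 24.8 to 69.9%), beside 39.7% of the list. The 3 that joined were TIAL1 at 9 tags with 24 U, TIAL1 at 11 tags with 18 U, and PTBP3 at 16 tags with 9 U. The intervals are wide enough to include the share of the list in both windows.

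Antisense Alu repeats held 5 of the 15 (33.3%, 15.2 to 58.3%), beside 27.9% of the intron peaks of the list (26.9 to 28.9%), and none lay in a sense Alu. Over all 16 positions the share was 31.2%. It was 18.8% with an E-value limit of 1e-10, and 50% among the 10 positions with a p-value of at most 0.001. The list share was not recalculated at either setting, so the place of the members above or below the list was not settled there. The 5 were 2 peaks of TIAL1, 2 of PTBP3 and the RALY peak. All 5 had a U run when the 50 nt upstream were counted, against 2 of the 10 peaks outside antisense Alu. In the whole list these shares were 76.7% (74.8 to 78.4%) and 27% (25.8 to 28.2%). ELAVL1 and U2AF2 had no HNRNPC peak in an Alu.

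The 6-mer GUGUCA lay in the last 20 nt of 8 of the 15 peaks (53.3%, 30.1 to 75.2%), beside 23.3% of the list (22.5 to 24.2%). When 20 nt past the peak were searched as well, on the strand of the RNA only, it was at 9 of 15 (60%, 35.7 to 80.2%), beside 39.7% of the list (38.7 to 40.7%). With it in the last 20 nt were all 3 U2AF2 peaks, 4 of the 5 ELAVL1 peaks and the tallest PTBP3 peak. These 8 included the tallest peaks of ELAVL1, PTBP3 and U2AF2. The TIAL1 and RALY peaks had none in either window. Whether the 6-mer reflects binding or the library preparation was not tested.

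**Figure D3:**
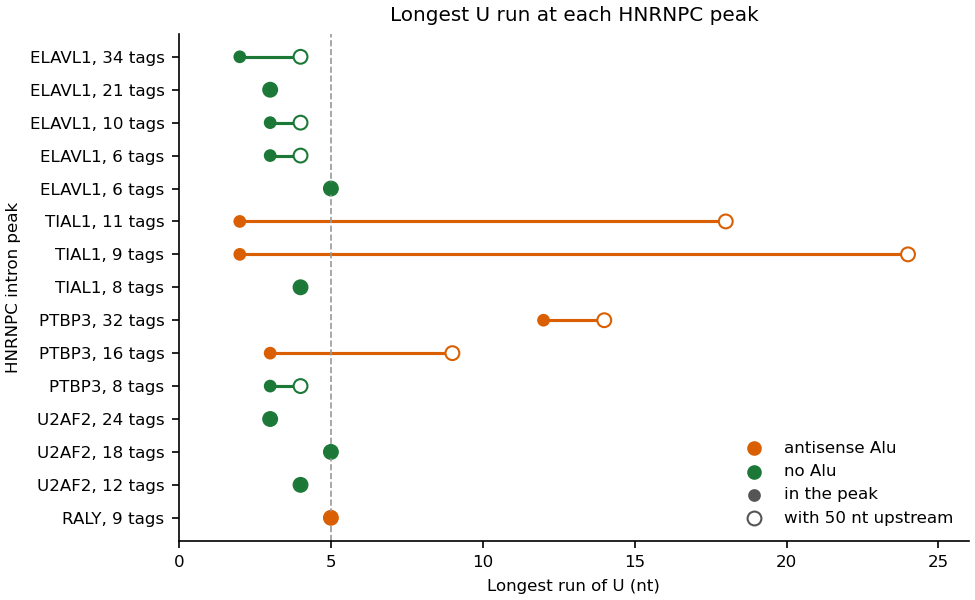
Longest run of U in nt (horizontal axis) at each of the 15 HNRNPC peaks inside the genes, in the peak itself (filled points) and with 50 nt upstream added (open points), orange for peaks in an antisense Alu and green for others; the dashed line marks 5 U. All 5 Alu peaks reach the line with the upstream bases, and 2 of the other 10 do.

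PABPC4 peaks were found on all 7 genes (59.2% of protein-coding genes had at least 1 PABPC4 position), and all 7 had one in a 3′ UTR (46.9% of protein-coding genes). Inside the genes, 24 of 59 lay in 3′ UTRs (40.7%, 29.1 to 53.4%), beside 29.7% of the whole list, and 30 of 59 in introns (50.8%, 38.4 to 63.2%), beside 60.2%. By gene ID the 3′ UTR count was 26 of 68 (38.2%, 27.6 to 50.1%), with the CD320 and NDUFA7 3′ UTRs among them. Heights of the 68 ran from 9 to 420 tags with a median of 40.5, beside 38 for the list.

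The tallest 3′ UTR peak of each gene ended as follows, shown because a poly(A) signal (AATAAA or, in place of it, ATTAAA, in capitals) lies in the last 40 nt of all but that of TIA1. Each sequence runs from the signal to the end of the peak, and that of TIA1 is the whole peak. Only bases inside a peak were searched, and that TIA1 peak is 19 nt wide, so a signal upstream of it would be missed.
U2AF2 chr19:55674689-55674715, strand plus: ATTAAAcattttgttgtattttacttt
PTBP1 chr19:812293-812317, strand plus: AATAAAtcttctgtatcctcgctcc
PTBP3 chr9:112218608-112218625, strand minus: ATTAAAaaacatattttc
ELAVL1 chr19:7962276-7962299, strand minus: ATTAAAtttgattttgttttgctc
TIA1 chr2:70209521-70209539, strand minus: attttgactgttgtgttta
TIAL1 chr10:119575410-119575422, strand minus: AATAAAgacaatt
RALY chr20:34080241-34080260, strand plus: AATAAAgagattggatccca
Over all 3′ UTR peaks in the genes, 11 of 24 had a signal there (45.8%, 27.9 to 64.9%), beside 47.1% of the list (46.4 to 47.8%). For intron peaks the share was 2 of 30 (6.67%, 1.85 to 21.3%), beside 5.96%. In the genes and in the list alike, these shares may miss signals that lie upstream of peaks narrower than 40 nt.

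U2AF2 had 2 PABPC4 peaks, both in the 3′ UTR, with 25 tags and, at chr19:55674607-55674715, with 373 tags (336.1 to 412.8). The taller one ended at an annotated transcript end, at 0 nt, and 93.7% of the gene's PABPC4 tags were within 50 nt of an annotated end. In PTBP1, a peak of 420 tags (380.8 to 462.2) at chr19:812113-812317, the tallest of all members, ended 5 nt past an annotated end and carried 68.6% of the gene's tags. The other 3 PTBP1 peaks had 26 tags in the 3′ UTR, 99 in intron 13 and 67 in intron 10, where an alternative transcript has a non-coding exon.

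TIAL1 had 9 PABPC4 peaks, 7 in the 3′ UTR and 2 in coding sequence around the stop codon, and none in an intron. The tallest, of 201 tags (174.2 to 230.8) at chr10:119575410-119575494, ended 255 nt past the stop codon and 2 nt past an annotated transcript end. At the canonical end, 2200 nt past the stop codon, a peak of 59 tags (44.9 to 76.1) ended 4 nt short. At the most distal annotated end a peak of 54 tags (40.6 to 70.5) ended 14 nt short. All 3 held a poly(A) signal, and the interval of the proximal peak lay above those of both distal ones, which overlapped. The proximal peak was also followed by an A-rich stretch and neither of the others was.

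TIA1, the paralogue of TIAL1, had 8 PABPC4 peaks of 12 to 92 tags. The tallest 3′ UTR peak, of 92 tags (74.2 to 112.8), ended 77 nt before the last annotated end, so that the gene had 3.52% of its tags within 50 nt of an annotated end. Those came from a coding peak of 12 tags beside the end of a transcript that stops inside the gene. Peaks of 58 and 31 tags lay 1288 and 1017 nt past the stop codon.

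ELAVL1, which has a long 3′ UTR of 4910 nt, had 5 3′ UTR peaks of 164, 157, 56, 37 and 21 tags. The peak of 164 tags (139.9 to 191.1) ended 1207 nt past the stop codon with a poly(A) signal, and the peak of 157 tags (133.4 to 183.6) ended 51 nt past the stop codon without one. Their intervals overlapped. The peaks of 37 and 21 tags ended 533 and 591 nt before the last annotated end. No ELAVL1 peak ended within 50 nt of an annotated end.

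PTBP3 had 4 3′ UTR peaks of 64, 49, 22 and 13 tags, all 2787 to 5402 nt past the stop codon. The peak of 13 tags ended 14 nt before the canonical end and the peak of 64 tags (49.3 to 81.7) ended 173 nt before it. Only 26.2% of the PABPC4 tags of PTBP3 lay in its 3′ UTR, the lowest share of the 7. In RALY, 1 peak of 286 tags (253.8 to 321.1) at chr20:34080186-34080260 lay in the 3′ UTR, ended 4624 nt before the canonical end and had a poly(A) signal. It was not near any annotated end, the closest being 2580 nt upstream.

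For the 7 genes together, 29.6% of PABPC4 tags, as summed peak heights, lay within 50 nt of an annotated end of the same gene. The value for the whole list was 36.2%. By member gene it was 93.7% in U2AF2, 68.6% in PTBP1, 55.4% in TIAL1, 3.52% in TIA1, 2.3% in PTBP3 and 0 in ELAVL1 and RALY. These shares depended on the distance and the ends used. Within 100 nt TIA1 had 30.5%, since its peak of 92 tags was then counted, and ELAVL1 had 2.8%. With the end of the canonical transcript alone, TIAL1 had 10.4%, since its peak of 201 tags lay at another annotated end. U2AF2 and PTBP1 kept 93.7% and 68.6% under both.

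**Figure D4:**
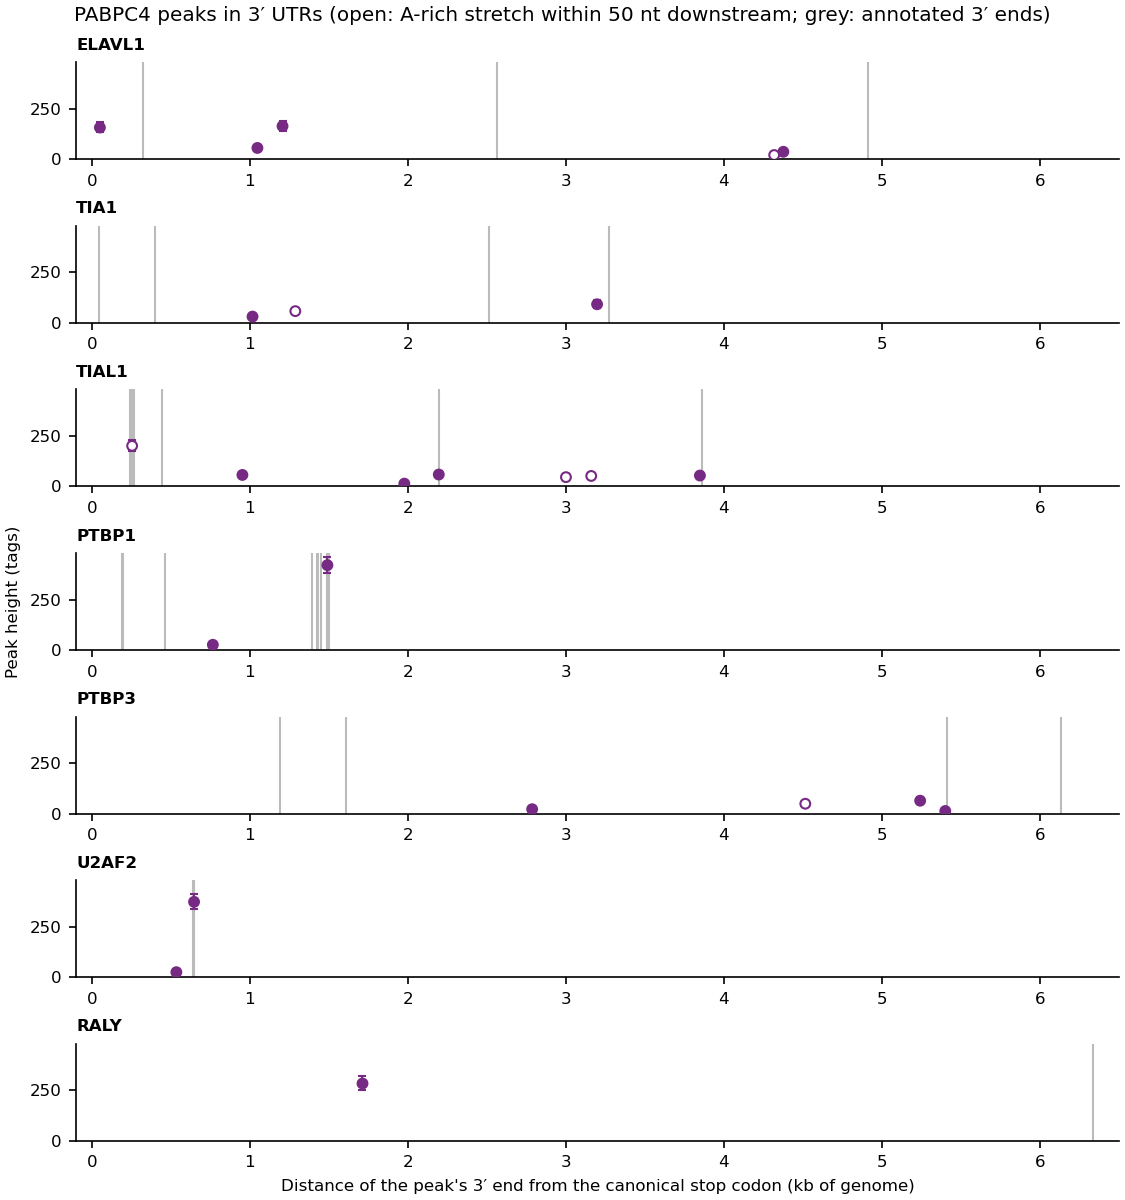
Height in tags (vertical axis, bars are exact 95% Poisson intervals) of each PABPC4 peak in a 3′ UTR against the distance of its 3′ end from the canonical stop codon in kb of genome; open points have an A-rich stretch within 50 nt downstream and grey lines are annotated transcript ends. The tallest peaks of U2AF2, PTBP1 and TIAL1 sit on a grey line, and those of ELAVL1 and RALY do not.

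PAPERCLIP primes with oligo-dT, which can also pair with A-rich stretches in the genome-encoded sequence, so the 50 nt after each PABPC4 peak were searched for an A-rich stretch, either 6 consecutive A or at least 7 among any 10 bases. It followed 29 of the 59 peaks in the genes (49.2%, 36.8 to 61.6%), beside 58.5% of the list (58.1 to 58.9%). It followed 21 of 30 intron peaks (70%, 52.1 to 83.3%), beside 71.2% of the list, and 6 of 24 3′ UTR peaks (25%, 12 to 44.9%), beside 32%. The tallest intron peaks of ELAVL1 (59 tags), PTBP1 (99 tags) and PTBP3 (115 tags) preceded such a stretch, and those of RALY (102 tags) and TIA1 (64 tags) did not. The 50 nt downstream are shown for ELAVL1 and PTBP1, as examples of such a stretch, with runs of 4 or more A in capitals.
ELAVL1 chr19:7995881-7995930, strand minus: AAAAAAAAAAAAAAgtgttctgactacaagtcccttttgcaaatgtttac
PTBP1 chr19:810301-810350, strand plus: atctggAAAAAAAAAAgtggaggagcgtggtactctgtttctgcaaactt

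Intron peaks were most numerous in PTBP3 and RALY, with 9 each. In RALY 8 of the 9 lay in sense Alu repeats, with 10 to 102 tags, while its tallest 3′ UTR peak had 286. In PTBP3 the 2 tallest peaks of the gene, of 115 (94.9 to 138.0) and 108 tags (88.6 to 130.4), were both in intron 2 and both before an A-rich stretch. The peak of 108 tags also had a poly(A) signal in its last 40 nt and lay in no Alu, while that of 115 tags had no signal and lay in a sense Alu. The only other intron peak in the genes with a signal, of 41 tags in RALY, also preceded an A-rich stretch. That peak lay 9807 nt past the canonical end, in an intron only of a longer annotated transcript. Over the genes 18 of 30 intron peaks lay in a sense Alu (60%, 42.3 to 75.4%), beside 43.8% of the list (43.3 to 44.3%). TIAL1 and U2AF2 had no PABPC4 intron peak.

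The 9 intron peaks with no A-rich stretch were 5 of RALY with 102, 38, 31, 19 and 10 tags, 2 of PTBP3 with 49 tags in intron 5 and 40 in intron 2, 1 of ELAVL1 with 52 tags in intron 1 and 1 of TIA1 with 64 tags in intron 7. None of the 9 had a poly(A) signal in its last 40 nt, and 6 lay in a sense Alu. Whether they mark 3′ ends in introns was not tested.

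On these genes, as in the whole list, most HNRNPC peaks lay more than 500 nt from any PABPC4 peak. No HNRNPC peak in the genes overlapped a PABPC4 peak or came within 100 nt of one. The list share was not calculated at either of these settings. Within 500 nt there were 2 of 15 (13.3%, 3.74 to 37.9%), beside 8.97% of the whole list (8.4 to 9.58%). They were the ELAVL1 peak of 21 tags in intron 3, 126 nt from a PABPC4 peak of 57 tags, and the PTBP3 peak of 16 tags in intron 12, 193 nt from a PABPC4 peak of 31 tags. Both PABPC4 peaks preceded an A-rich stretch. The next pairs were 687 nt apart in PTBP3 and 822 nt apart in ELAVL1.

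Among 28 other genes for proteins that bind U-rich, AU-rich or pyrimidine-rich RNA, 13 had an HNRNPC position by gene ID (46.4%, beside 19.0% of all protein-coding genes) and 23 a PABPC4 position (82.1%, beside 59.2%). Inside the annotated genes the counts were 12 and 23. The part of RNA levels in these counts was not tested. U2AF1 had the most in both lists, 119 and 333, but 0 and 1 of these lay inside the annotated gene, so its ID was assigned to positions elsewhere. Next in the HNRNPC list were HNRNPC itself with 11 positions, 10 of them in introns, and RBM39, a splicing factor related to U2AF2, with 8. In the PABPC4 list they were CELF1 with 29 and PTBP2, the neuronal paralogue of PTBP1, with 21. PTBP2 had 1 HNRNPC position.

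The gene most like each member was the one at the least Euclidean distance over 8 values, the log2 of 1 plus summed tags in 3′ UTR, coding, intron and other positions of both lists, among 3730 genes with peaks in both. It was MCRIP1 for U2AF2 (distance 0.3), SLC16A7 for RALY (0.23), DYNC2I2 for TIAL1 (0.35), AFF1 for PTBP3 (0.62) and CD44 for ELAVL1 (1.26, with the positions outside the gene included). TIA1 and PTBP1 had no HNRNPC position and were not compared.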

How the data were processed

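Binding of HNRNPC and PABPC4 was measured in 2 samples each, which the study describes as biological duplicates. The authors collapsed HNRNPC reads by molecular identifier (UMI-tools), trimmed them with cutadapt, aligned them to hg38 with BWA 0.7.17, took out PCR duplicates and used the CLIP Tool Kit to find peaks. PABPC4 libraries were made without a tailing step and with a custom reverse transcription primer. How PABPC4 reads were processed was not given separately in the sources used here. The signal deposited for a peak is its height in tags, pooled over the samples and not scaled to depth. The methods also describe joining the HNRNPC peaks with a published iCLIP set. Whether that set entered the deposited list was not settled, and its heights were read as tags of the study's own samples. Whether irCLIP or HITS-CLIP gave the HNRNPC list was not settled. Reads per library were not analysed here.

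The members and gene lists were chosen with earlier results of these data known. Peak centres were assigned on their strand with GENCODE 44, in the order 3′ UTR, coding, 5′ UTR, non-coding exon, intron, with UTRs from protein-coding transcripts. Where a position had several gene IDs, the member's row was kept. An annotated end was that of any transcript of the gene. Alu repeats were found with blastn 2.17.0, with the 7SL RNA gene of the reference as query, in the peak and 100 nt on each side (E of at most 1e-05). Gene IDs were named with a RefSeq table. Intervals used scipy 1.17.1 at 95%. Some member sequences are not reported here. The U-run, A-rich and feature functions were tested on simulated data. Described were all members, the tallest peak per gene and list, every HNRNPC peak and every PABPC4 intron peak without an A-rich stretch; among the 28 other genes, the 3 with most positions per list were named.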

Additional observations from a re-analysis of the deposited data

How the results depend on the processing

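Of 53 recalculations, 42 left a value within its counting interval (or a count within 1.5 times) and 11 moved it. A p-value of at most 0.001 left 10 of 16 HNRNPC positions, and the whole-list share at this limit was not calculated. Heights at or above the median of the list left 8 HNRNPC and 36 of 68 PABPC4 positions. The share of HNRNPC positions with a U run was 25% over all 16 and 6.25% with a minimum of 6 U. The list share was not recalculated at 6 U. The share of PABPC4 tags at annotated ends was 26.1% over all 68 positions and 30.7% for the taller ones. It was 19.9% with canonical transcripts, 24.3% within 10 nt, 28.7% within 100 nt and 29.6% inside the genes. Restricting values to positions inside the genes, as for most shares above, was tried only once the data had been seen. The HNRNPC positions within 500 nt of PABPC4 were 2, and 0 by overlap and 0 within 100 nt. For overlap and 100 nt the list share was not calculated. The intron share of HNRNPC stayed at 100% under each alternative run.

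No paired analysis was possible because each list pools its 2 samples, and no replicate could be left out for the same reason. With 16 and 68 positions, shares carried wide intervals. Peaks of few tags may be missed on RNAs of low abundance, so a gene without a peak is not shown to be unbound.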
